A study of Homo sapiens with 6 samples.

Results

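MYO10, fascin and 7 further genes that build or steer filopodia were followed across the arrays of a BATF3 knockdown in L428, an established cell line from human Hodgkin lymphoma. Every probe set that the platform annotation assigns to one of these genes alone was taken, which gave 46 of the 49393 probe sets on the array and 9 of 18244 genes. The set was chosen from the knockdown contrast itself as far as MYO10 goes, because MYO10 was the single gene called higher after BATF3 siRNA. Its own difference, and the call that chose it, are therefore given only as a description. The other 8 genes, FSCN1, CDC42, VASP, ENAH, EVL, DIAPH1, DIAPH3 and BAIAP2, were listed for their role. Earlier results of these data were known when they were listed. None of the 46 probe sets was shared with a second gene in the annotation.

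The groups were BATF3 siRNA (3 arrays) and negative control siRNA (3 arrays). Both came from L428 cells given 3 µg of siRNA by nucleofection and harvested after 48 hours, and 1 BATF3 siRNA sequence was used. The cells are a single line, and all 6 arrays passed through nucleofection. The values are log2 expression per probe set as the authors deposited them, and array medians lay between 6.24 and 6.32. BATF3 itself read 10.87, 10.76 and 10.69 in the BATF3 siRNA arrays, against 11.89, 12.08 and 11.94 in the control siRNA arrays, a level of 0.436 times the control.

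Filopodia are thin membrane protrusions filled with a parallel bundle of actin filaments. The small GTPase CDC42 starts them, formins and Ena/VASP proteins lengthen the filaments at the tip, fascin ties the filaments together, and the I-BAR protein IRSp53 bends the membrane around them. MYO10 is an unconventional myosin that walks along the bundle to the tip and carries integrins and other receptors there. Fascin is a classic immunohistochemical marker of the malignant cells of Hodgkin lymphoma and of dendritic cells.

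The cells read as the labels name them. Of 10 Hodgkin cell markers, 9 exceeded the brightest background probe set on all 6 arrays, with CCL22 below it on every array. The same held for 2 of 5 B cell markers (CD79B and PAX5), 0 of 6 T and NK cell markers, 1 of 6 myeloid markers (CD68), 1 of 6 dendritic cell markers (CCR7) and 0 of 6 markers of fibroblasts and epithelium. After the log2 values were turned back to a linear scale and summed, the T and NK markers came to 147 to 172 after BATF3 siRNA, against 138 to 140 in controls. The myeloid markers came to 463 to 532 after BATF3 siRNA, against 357 to 445 in controls. All 6 T and NK markers and 5 of the 6 myeloid markers, CD163 among them, were under the highest background on every array. Single genes differed within these lists: NKG7 was at 0.40 and CD8A at −0.25 (log2 difference), and CD68 was at 0.47 and CD163 at 0.43 while LYZ (−8.1e-05) and CSF1R (−0.10) were not higher. None of the markers was called by limma. The sums of the other 4 lists overlapped between the groups, and the part of these markers in the results below was not tested.

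The stretch of DNA before the MYO10 start is shown first, because MYO10 is the gene around which the set was built and BATF3 belongs to the factors that bind AP-1 sites in DNA. The sequence is RefSeq's (GRCh38.p14), the 250 bases before the annotated start, and no data here show which start L428 cells use. Capitals mark GC boxes (GGGCGG on either strand), the sites of SP and KLF family factors, and AP-1-like motifs (TGANTCA, the same on both strands). One window of BAIAP2 is set beside it because it was the only one of 13 windows, covering 8 of the 9 genes, that held the AP-1-like letters.

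MYO10, chr5:16936289-16936538, minus strand: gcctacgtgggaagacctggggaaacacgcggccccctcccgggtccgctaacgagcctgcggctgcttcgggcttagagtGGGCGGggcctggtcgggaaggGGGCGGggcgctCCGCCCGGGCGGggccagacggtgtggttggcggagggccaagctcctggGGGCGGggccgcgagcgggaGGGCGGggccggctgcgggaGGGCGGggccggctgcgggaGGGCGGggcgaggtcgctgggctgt
BAIAP2, chr17:81097361-81097610, plus strand: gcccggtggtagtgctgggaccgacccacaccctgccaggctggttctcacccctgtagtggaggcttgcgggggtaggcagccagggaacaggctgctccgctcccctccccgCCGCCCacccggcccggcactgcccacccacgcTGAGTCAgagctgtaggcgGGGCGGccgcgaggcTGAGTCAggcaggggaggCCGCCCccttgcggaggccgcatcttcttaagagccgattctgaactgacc

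The MYO10 window held 8 GC boxes, and its bases were 78.8% G or C. Over 35116 windows of this length the median was 58% G or C, 42.6% held at least 1 GC box, and 0.584% held at least 8. The AP-1-like letters were not in the MYO10 window and occurred 2 times in the BAIAP2 window, beginning 103 and 69 bases before that start. They were found in 6.57% of all windows. The CRE letters TGACGTCA, a site of related leucine zipper factors that reads the same on both strands and does not contain the AP-1-like letters, were found once among the 13 windows, in that of CDC42, and in 1.65% of all windows. A match is a description of the letters and not of binding, and windows of the other members held 0 to 9 GC boxes.

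MYO10 stood higher after BATF3 siRNA on every probe set that reads it. On 11744347_a_at, the brightest of the 5 and the one that stands for the gene, MYO10 read 7.13, 7.26 and 7.32 in the BATF3 siRNA arrays, against 6.39, 6.42 and 6.17 in the control siRNA arrays. The groups were apart by 0.70 between the lowest BATF3 siRNA array and the highest control array. Mean log2 values were 7.24 ± 0.10 in BATF3 siRNA arrays and 6.33 ± 0.14 in control arrays (SD over 3 arrays each), a difference of 0.91 (SE 0.10), or 1.88 times the control on the deposited values. Among 18244 genes this was the third highest positive difference and the fifth in size of either sign.

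The other 4 MYO10 probe sets gave smaller differences from dimmer values. Probe set 11759661_at read 4.72, 4.56 and 4.59 in the BATF3 siRNA arrays and 4.19, 3.71 and 4.17 in the control siRNA arrays, a difference of 0.60 (SE 0.14). Here control replicate 2 lay well under the other controls, and the gap between the groups, 0.37, was the distance to control replicate 1. Probe set 11744346_a_at read 5.05, 5.04 and 5.26 after BATF3 siRNA and 4.73, 4.57 and 4.68 after control siRNA, a difference of 0.46 (SE 0.10). For 11746132_a_at the values were 5.09, 4.73 and 4.99 after BATF3 siRNA and 4.59, 4.38 and 4.63 after control siRNA, a difference of 0.40 (SE 0.12). Both sets kept the groups apart, the second by only 0.10.

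On 11742414_x_at MYO10 read 3.01, 3.27 and 3.24 in the BATF3 siRNA arrays and 3.00, 2.78 and 2.89 in the control siRNA arrays. The difference was 0.29 (SE 0.11) and the groups were separated by only 0.013, between BATF3 siRNA replicate 1 and control replicate 1. In all 5 probe sets, then, the 3 BATF3 siRNA arrays lay above the 3 control arrays, an arrangement found in 6.38% of all probe sets. Probe sets of 1 gene share their RNA and are not replicates, and this contrast chose the gene, so nothing is read from that share. Control replicate 2 was the lowest control array in 4 of the 5 sets and control replicate 3 in the set that stands for the gene.

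**Figure D1:**
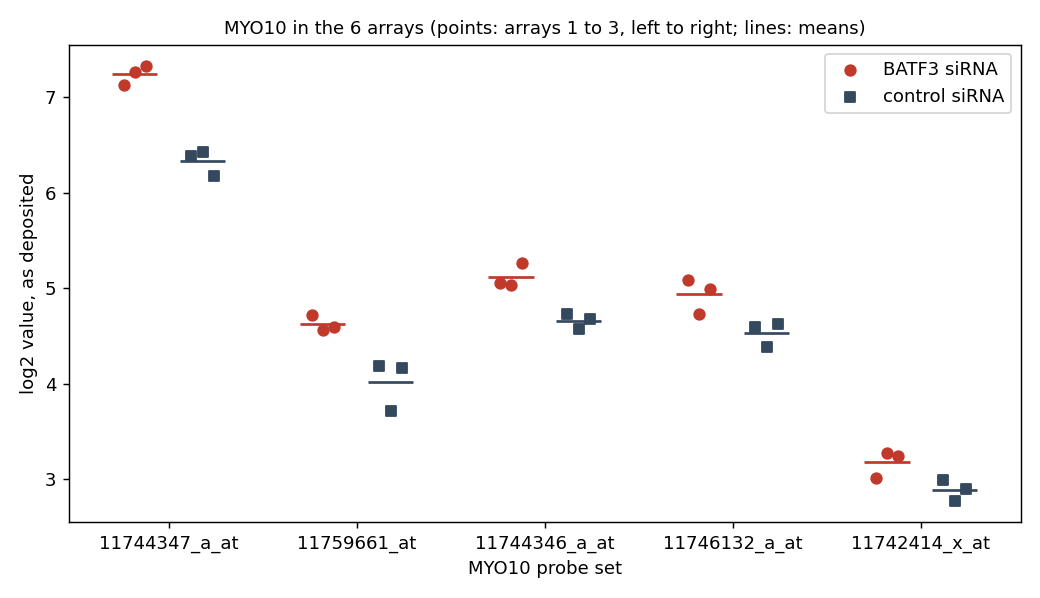
Log2 values of the 5 MYO10 probe sets (x axis) in the 3 BATF3 siRNA arrays (red circles) and 3 control siRNA arrays (dark squares), with group means as lines. The 11744347_a_at values of 7.13 to 7.32 after BATF3 siRNA stand clear of 6.17 to 6.42 after control siRNA, while on 11742414_x_at the groups nearly touch.

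The values behind this difference were low ones. Background probe sets, which match no human sequence and are graded by their G and C content, reached 6.68 to 7.18 in the BATF3 siRNA arrays and 7.11 to 7.32 in the control arrays at their highest. The leading MYO10 probe set was above the highest background of its array on 2 of 6 arrays, BATF3 siRNA replicates 2 and 3. There it read 7.26 against 6.68 and 7.32 against 6.73. In BATF3 siRNA replicate 1 it read 7.13 against 7.18, and it was also under the highest background on the 3 control arrays. The other 4 MYO10 probe sets exceeded the highest background on no array. Which background applies depends on the bases of each probe, which were not used here. How far background alters the log2 difference was not tested.

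Array background also moved in part with the siRNA. Background probe sets richest in G and C, those carrying 20 to 25 such bases, averaged 6.49, 5.92 and 5.98 in BATF3 siRNA replicates 1, 2 and 3, against 6.49, 6.48 and 6.46 in control replicates 1, 2 and 3. BATF3 siRNA replicate 1, the 1 array of its group with a background like the controls', stood 0.80 above the control mean on 11744347_a_at, and replicates 2 and 3 together stood 0.96 above it. On 11759661_at, 11744346_a_at, 11746132_a_at and 11742414_x_at replicate 1 stood 0.70, 0.39, 0.55 and 0.12 above the control mean. Replicates 2 and 3 together stood 0.55, 0.49, 0.33 and 0.37 above it on the same sets, so replicate 1 was the higher on 2 of the 5 and the lower on 3. The part of array background in the MYO10 difference was not tested beyond these values, since only 1 BATF3 siRNA array shares the controls' level.

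**Figure D2:**
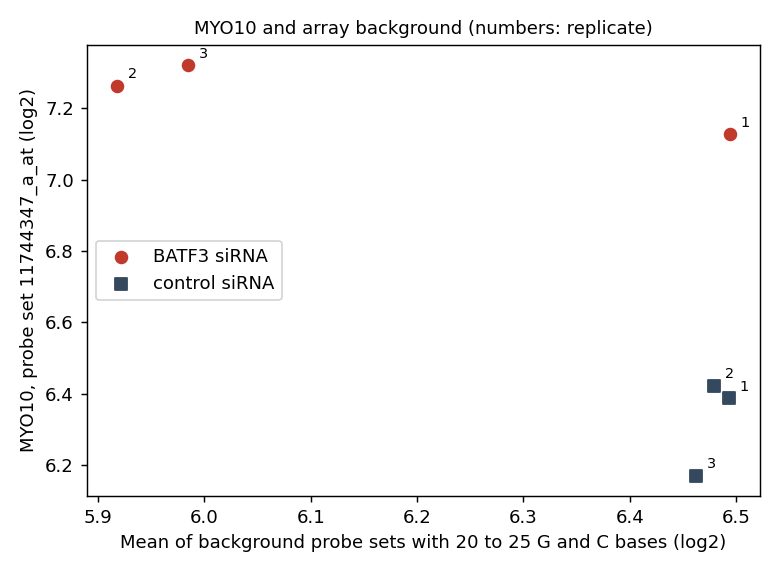
MYO10 on probe set 11744347_a_at (y axis, log2) against the mean of the background sets richest in G and C (x axis, log2), 1 point per array with its replicate number. BATF3 siRNA replicate 1, at a background of 6.49, reads 7.13 for MYO10, while the controls at 6.46 to 6.49 read 6.17 to 6.42.

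In the fit over all genes (limma, Benjamini-Hochberg adjusted p under 0.05), 1 of the 9 filopodia genes was called, MYO10, with 0.0164% of all genes called and 0.00548% called higher. Nothing is read from that count, since the call chose the gene. In the fit over all probe sets 0 of the 46 were called, against 0.0101% of all probe sets. Of the 41 that do not read MYO10, 2 had an unadjusted p under 0.05, 1 of CDC42 and 1 of BAIAP2, beside 7.16% of all probe sets. The call at gene level was kept in 5 of 18 alternative settings and was lost on leaving out any 1 of the 6 arrays. Of those 5, 1 was the same fit at a looser threshold of 0.1, which could not lose the call. Another, the most variable probe set, used the same MYO10 values. Averaging the probe sets of each gene gave a MYO10 difference of 0.53 in place of 0.91, and the call was lost.

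None of the other 8 genes was called (limma), none had an unadjusted p under 0.05, against 7.15% of all genes, and a test with unequal variances also called none. The lowest limma adjusted p among them was 0.845, and the 95% intervals of their differences lay between −0.41 and 0.32. Of their 41 probe sets 20 had a positive and 21 a negative difference, with a median of −0.00046, beside −0.0036 over all probe sets. Among these 41, 38 differed by less than 0.2 either way. The BATF3 siRNA arrays lay wholly above the controls in 4 of them and wholly below in 0, against 6.38% and 5.86% of all probe sets.

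**Figure D3:**
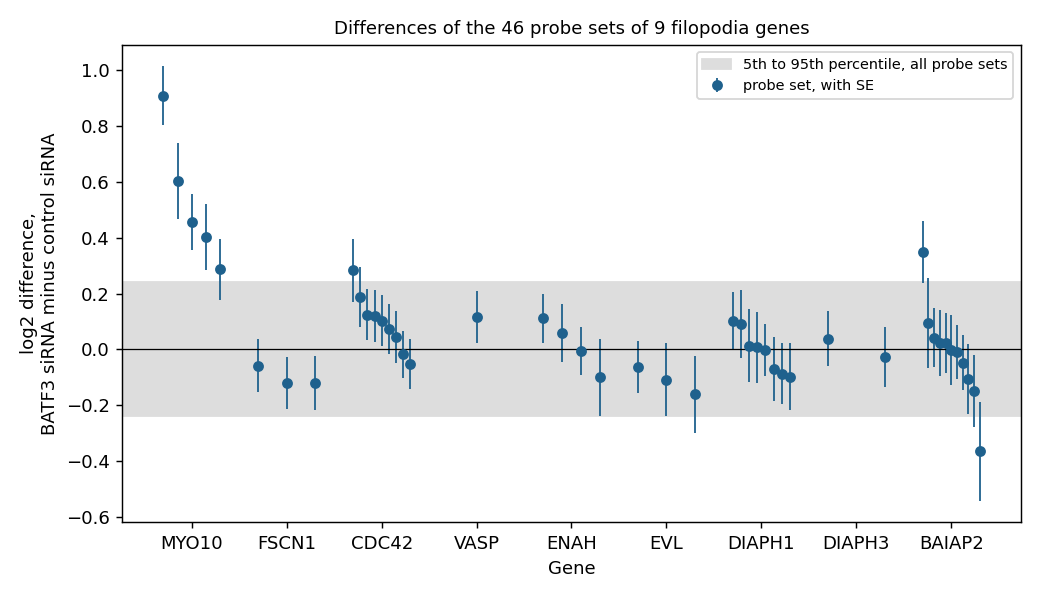
Log2 differences (BATF3 siRNA minus control siRNA) of the 46 probe sets, grouped by gene, each with the standard error of its fit. The grey band holds the 5th to 95th percentile of all probe sets, −0.24 to 0.24, and the 5 MYO10 sets at 0.29 to 0.91 lie above it, as do 1 CDC42 set (0.28) and 1 BAIAP2 set (0.35), while another BAIAP2 set (−0.37) lies below it.

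FSCN1 encodes fascin, the protein that packs actin filaments into the stiff core of a filopodium. On 11715491_s_at, its brightest probe set, FSCN1 read 12.03, 11.84 and 11.85 in the BATF3 siRNA arrays, against 11.94, 12.03 and 11.92 in the control siRNA arrays. The groups overlapped, and BATF3 siRNA replicate 1 stood with the controls. The difference was −0.06 (SE 0.093; 95% interval −0.27 to 0.15; limma adjusted p = 0.937), so the interval covers levels between 0.831 and 1.11 times the control. Its second probe set, 11747355_a_at, read 10.65, 10.43 and 10.61 after BATF3 siRNA and 10.67, 10.76 and 10.62 after control siRNA, a difference of −0.12 (SE 0.098). The remaining one, 11747356_x_at, read 10.44, 10.22 and 10.37 after BATF3 siRNA and 10.49, 10.46 and 10.44 after control siRNA, also −0.12 (SE 0.094). In both, BATF3 siRNA replicate 2 was the lowest of the 6 arrays, and neither passed (limma adjusted p = 0.847 and 0.841 over all probe sets). All 3 were above the highest background on all 6 arrays, so the signal of this marker was strong with either siRNA.

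CDC42 encodes the GTPase that triggers filopodia when loaded with GTP. The probe set that stands for it, 11721886_a_at, read 12.61, 12.74 and 12.70 in the BATF3 siRNA arrays and 12.65, 12.54 and 12.64 in the control siRNA arrays. The groups overlapped and the difference was 0.07 (SE 0.087; 95% interval −0.12 to 0.27; limma adjusted p = 0.912). Of its 9 probe sets 7 were positive, and they ran from −0.05 to 0.28. The highest was 11725719_s_at, which read 8.62, 8.82 and 8.58 after BATF3 siRNA and 8.27, 8.57 and 8.35 after control siRNA. Its lowest BATF3 siRNA array was only just above control replicate 2, and it did not pass (0.28, SE 0.11; limma adjusted p = 0.663 over all probe sets). Sets ending in s_at or x_at can hold probes that match other transcripts, and 6 of the 9 CDC42 sets end so. The sets that stand for FSCN1 and BAIAP2 also do. Among the actin genes named below, so do those of MYO3B, ITGB1, ACTN1, TRIP10, ARPC4 and RDX.

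BAIAP2 encodes IRSp53, which binds CDC42 and curves the membrane outwards through its I-BAR domain. Its 11 probe sets were dim: none exceeded the highest background on any array. The one that stands for it, 11762496_x_at, read 6.42, 6.58 and 6.58 in the BATF3 siRNA arrays and 6.34, 6.51 and 6.65 in the control siRNA arrays, a difference of 0.02 (SE 0.105; 95% interval −0.21 to 0.26; limma adjusted p = 0.980). The groups overlapped fully. The 11 sets disagreed with each other, with 5 positive and 6 negative and a range from −0.37 to 0.35. At the top, 11722720_at read 5.30, 4.96 and 5.21 after BATF3 siRNA and 4.73, 4.91 and 4.78 after control siRNA (0.35, SE 0.11; limma adjusted p = 0.584 over all probe sets). At the bottom, 11754668_x_at read 5.69, 5.48 and 5.11 after BATF3 siRNA and 5.87, 5.47 and 6.03 after control siRNA (−0.37, SE 0.18; limma adjusted p = 0.732). The first kept the groups apart and the second did not.

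The Ena/VASP proteins VASP, ENAH (also called Mena) and EVL bind growing filament ends and hold off capping proteins. VASP has a single probe set here, 11744034_a_at, which read 7.21, 7.03 and 7.17 in the BATF3 siRNA arrays and 6.95, 7.04 and 7.07 in the control siRNA arrays. BATF3 siRNA replicate 2 fell among the controls, and the difference was 0.12 (SE 0.090; 95% interval −0.09 to 0.32; limma adjusted p = 0.845). This was the largest positive difference among the 8 genes. The VASP probe set exceeded the highest background of its array on the 3 BATF3 siRNA arrays and on no control array. That background itself differed, at 7.18, 6.68 and 6.73 in the BATF3 siRNA arrays and 7.32, 7.11 and 7.16 in the controls. BATF3 siRNA replicate 2 passed it with a lower VASP value than control replicates 2 and 3, which did not.

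ENAH (0.14) had the widest standard error of the 9 genes. On 11740107_a_at it read 7.68, 7.42 and 7.23 in the BATF3 siRNA arrays and 7.49, 7.75 and 7.40 in the control siRNA arrays, a difference of −0.10 (SE 0.14; 95% interval −0.41 to 0.20; limma adjusted p = 0.922). The arrays spread over 0.44 after BATF3 siRNA and over 0.35 after control siRNA, more than the size of this difference. Its other 3 probe sets ran from −0.01 to 0.11, so 2 of the 4 were positive. EVL, the form typical of blood cells, read 8.82, 8.78 and 8.82 on 11727835_a_at in the BATF3 siRNA arrays and 8.79, 9.0 and 8.82 in the control siRNA arrays. Control replicate 2 stood above the other 5 arrays. The difference was −0.06 (SE 0.091; 95% interval −0.27 to 0.14; limma adjusted p = 0.927), and its 3 probe sets were all negative, from −0.16 to −0.06. The lowest of the 3, 11745874_a_at, read 7.80, 7.57 and 7.83 after BATF3 siRNA and 7.66, 8.16 and 7.87 after control siRNA, again with control replicate 2 as the highest array (−0.16, SE 0.14; limma adjusted p = 0.852 over all probe sets). On the probe set that stands for the gene the direction rested on that control: without that array the EVL difference was 0.0013.

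The formins DIAPH1 and DIAPH3 add actin monomers at the filament end and make long unbranched filaments. DIAPH1 on 11745169_a_at read 9.44, 9.02 and 9.19 in the BATF3 siRNA arrays and 9.28, 9.33 and 9.26 in the control siRNA arrays. The BATF3 siRNA arrays spread over 0.42 around controls that spread over 0.069, and the difference was −0.07 (SE 0.11; 95% interval −0.33 to 0.19; limma adjusted p = 0.937). Its 8 probe sets ran from −0.10 to 0.10, 4 on each side of 0, and control replicate 2 was the highest of the 6 arrays in 6 of them. DIAPH3 on 11728054_a_at read 8.77, 9.01 and 8.89 in the BATF3 siRNA arrays and 8.90, 9.05 and 8.80 in the control siRNA arrays, a difference of −0.03 (SE 0.104; 95% interval −0.26 to 0.21; limma adjusted p = 0.974). In both groups replicate 2 was the highest, and the groups overlapped. Its second probe set, 11752028_a_at, read 8.06, 7.90 and 8.07 after BATF3 siRNA and 7.93, 8.08 and 7.90 after control siRNA, a difference of 0.04 (SE 0.098), and there BATF3 siRNA replicate 2 was the lowest of its group.

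**Figure D4:**
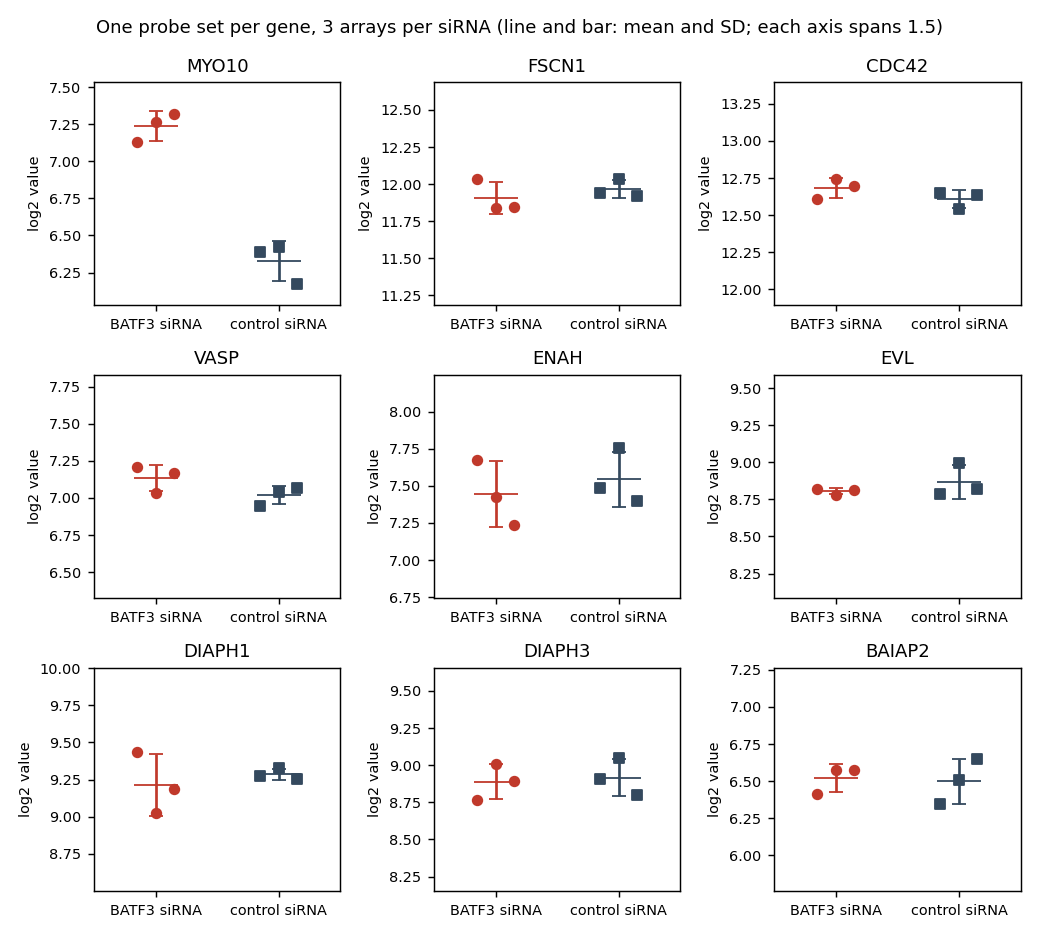
Log2 values of the probe set that stands for each of the 9 genes, 3 BATF3 siRNA arrays on the left and 3 control siRNA arrays on the right of each panel, with mean and SD; every y axis spans 1.5. The groups are apart for MYO10 (7.24 against 6.33) and overlap for the other 8 genes.

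Genes of the same machinery outside the 9 were listed by role in 9 lists, with 171 genes in all and 161 measured. None was called by limma or by the test with unequal variances, 12 had an unadjusted p under 0.05, 4 higher and 8 lower, or 7.45% beside 7.15% of all genes. The median difference was 0.0051, beside −0.0027 over all genes.

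Other myosins had a median difference of −0.05, with 12 of 30 positive, 0 called and 1 with an unadjusted p under 0.05. The genes with the smallest p were MYO3B, a myosin of sensory protrusions, at −0.31 (SE 0.092), MYO1A, a brush border myosin, at 0.36 (SE 0.18), and MYO18A at −0.21 (SE 0.11). MYO1A was under the highest background on every array, and its difference was 0.18 without control replicate 1 and 0.20 without BATF3 siRNA replicate 1. The MYO18A difference was −0.099 without BATF3 siRNA replicate 2. The MYO3B probe sets disagreed, and 1 of the 5 differed by 0.44. Cargoes and partners of MYO10 had a median of 0.0097, with 7 of 13 positive, 0 called and 2 with an unadjusted p under 0.05. ITGB3, an integrin chain that MYO10 can carry, read 5.22, 5.10 and 5.04 in the BATF3 siRNA arrays and 4.58, 4.83 and 4.70 in the control siRNA arrays. These groups did not overlap, but the gene did not pass (0.42, SE 0.10; limma adjusted p = 0.418), lay under the highest background on every array, and had 4 of 7 probe sets positive. ITGB1, the main integrin cargo, differed by 0.28 (SE 0.14), with its 5 probe sets between −0.22 and 0.28. Control replicate 2 read 10.16 for ITGB1, against 10.67 and 10.68 in the other controls, and without it the difference was 0.11.

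Actin bundling and crosslinking genes had a median of 0.00039, with 8 of 16 positive, 0 called and 3 with an unadjusted p under 0.05. CALD1 encodes caldesmon, an actin and myosin binding protein. It read 8.08, 8.11 and 7.69 in the BATF3 siRNA arrays and 8.31, 8.56 and 8.17 in the control siRNA arrays. The groups did not overlap and the difference was −0.38 (SE 0.14; limma adjusted p = 0.622), or −0.25 without BATF3 siRNA replicate 3. All 10 of its probe sets were negative, from −0.61 to −0.09, and 0 were called. In 7 of them the BATF3 siRNA arrays lay wholly below the controls, beside 5.86% of all probe sets. The 10 sets share their RNA and are not replicates. DBN1, which encodes the actin side-binding protein drebrin, differed by −0.29 (SE 0.11; limma adjusted p = 0.647), and ACTN1, the crosslinker alpha-actinin, by 0.19 (SE 0.083; limma adjusted p = 0.689). All 3 DBN1 probe sets were negative, while 4 of 7 for ACTN1 were positive.

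Formins other than DIAPH1 and DIAPH3 had a median of −0.04, with 4 of 11 positive, 0 called and 3 with an unadjusted p under 0.05. DAAM1, a formin of the planar polarity branch of Wnt signalling, read 7.60, 7.67 and 7.73 in the BATF3 siRNA arrays and 7.39, 7.35 and 7.36 in the control siRNA arrays. The groups did not overlap, on the single DAAM1 probe set (0.30, SE 0.084; limma adjusted p = 0.493). FMNL2, a formin of protrusion tips that also stands among the MYO10 partners, differed by −0.23 (SE 0.093), and FHOD3, known from heart muscle, by −0.24 (SE 0.10). The other FMNL2 probe set was at 0.07, and averaging its 2 probe sets gave −0.080.

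Ena/VASP ligands and profilins had a median of −0.09, with 3 of 12 positive, 0 called and 1 with an unadjusted p under 0.05. RAPH1 encodes lamellipodin, which brings Ena/VASP proteins to the leading edge, and it differed by −0.21 (SE 0.088; limma adjusted p = 0.689). FYB1, an adaptor of blood cells that binds EVL, differed by −0.26 (SE 0.12), and the profilin gene PFN4 by −0.20 (SE 0.093), both under the highest background on every array. I-BAR and other membrane-curving genes had a median of 0.02 with 7 of 11 positive, 0 called and 0 with an unadjusted p under 0.05. SRGAP1 was at −0.15, FNBP1 at −0.10 and TRIP10 at 0.10. FNBP1 was at −0.051 without BATF3 siRNA replicate 2, and TRIP10 ran from 0.032 without BATF3 siRNA replicate 1 to 0.17 without BATF3 siRNA replicate 3.

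Regulators and effectors of CDC42 had a median of 0.04, with 16 of 31 positive, 0 called and 2 with an unadjusted p under 0.05. CDC42SE1, a small CDC42 effector at the membrane, read 10.70, 10.72 and 10.66 in the BATF3 siRNA arrays and 10.37, 10.36 and 10.42 in the control siRNA arrays. The arrays of each siRNA lay close together and the groups were apart, with all 3 probe sets positive (0.31, SE 0.082; limma adjusted p = 0.475). FGD1, an exchange factor that activates CDC42, differed by −0.35 (SE 0.105; limma adjusted p = 0.529). Its other probe set was at 0.16, and averaging its 2 probe sets gave −0.094. CDC42EP1, an effector, differed by −0.25 (SE 0.12), or −0.16 without BATF3 siRNA replicate 1. Both genes were read from values under the highest background.

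WASP, WAVE and Arp2/3 genes, which build branched actin, had a median of 0.07 with 13 of 18 positive, 0 called and 0 with an unadjusted p under 0.05. CYFIP1 was at 0.15, ARPC4 at 0.17 and CYFIP2 at −0.16. Only 1 of the 3 CYFIP1 probe sets was positive, and the lowest was at −0.17. Without control replicate 2, ARPC4 was at 0.10 and CYFIP2 at −0.093, and ARPC4 was at 0.11 without BATF3 siRNA replicate 1. Genes of actin turnover, capping and the ERM proteins had a median of 0.02 with 12 of 20 positive, 0 called and 1 with an unadjusted p under 0.05. SSH1, the cofilin phosphatase, was at −0.26 (SE 0.107), radixin (RDX) at 0.21 and the capping protein CAPG, which was under the highest background on every array, at 0.24, or 0.16 without control replicate 3. The 5 SSH1 probe sets ran from −0.36 to 0.12, and the 8 RDX probe sets from −0.22 to 0.21, with 4 of the 8 positive. SSH1 exceeded the highest background on 2 of 6 arrays.

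**Figure D5:**
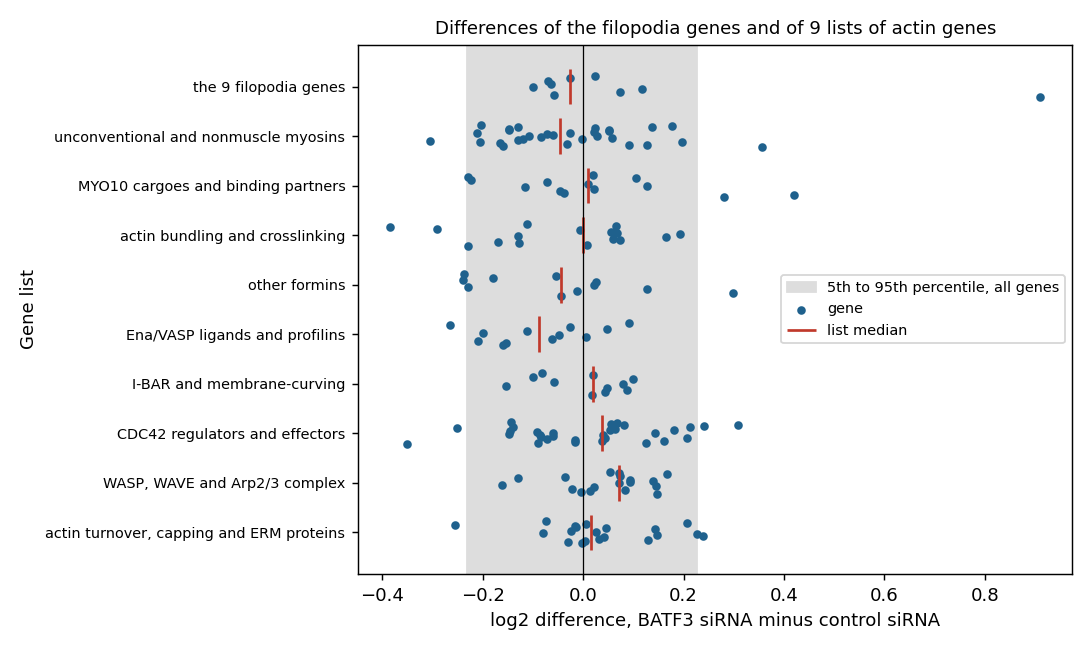
Gene-level log2 differences (x axis, BATF3 siRNA minus control siRNA) for the 9 filopodia genes and 9 lists of actin genes, 1 point per gene, with the list median in red and the 5th to 95th percentile of all genes, −0.23 to 0.23, in grey. MYO10 at 0.91 stands alone to the right, and the list medians lie between −0.09 and 0.07.

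Genes whose profile over the 6 arrays was most like that of MYO10 were found by centring each gene on its own mean and taking the root mean square difference from MYO10. The 5 nearest of 18243 genes were WDFY3 (0.13), ETV7 (0.13), KLHL4 (0.15), CA2 (0.16) and SLC26A4 (0.19), where the median gene was at 0.48 log2 units. WDFY3, a large adaptor of selective autophagy, read 5.99, 6.15 and 6.18 in the BATF3 siRNA arrays and 5.32, 5.49 and 5.38 in the control siRNA arrays, with all 7 of its probe sets positive (0.06 to 0.71). The differences of the other 4 were 0.71 for ETV7, an ETS family repressor, 0.80 for KLHL4, 0.66 for the carbonic anhydrase CA2 and 0.67 for the anion exchanger SLC26A4. ETV7 had 4 of 7 probe sets positive. WDFY3 was under the highest background on every array, CA2 and SLC26A4 exceeded it on 3 of 6, and ETV7 and KLHL4 on all 6. None of the 9 lists holds any of these 5 genes, and the likeness was measured on the same 6 arrays and the same contrast that chose MYO10.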

How the data were processed

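Total RNA was hybridised to Affymetrix PrimeView arrays, 3 after BATF3 siRNA and 3 after control siRNA. The authors deposited 1 log2 value per probe set and array. The affy package is named in the submitters' processing notes, while how background correction, normalization and summarization were done was not given in the sources used here. That the logarithm is to base 2 was inferred from the values. The table held 49495 probe sets, 102 of them controls. The platform annotation gave 1 gene for 45278, several for 1333 and none for 2782, with symbols looked up by Entrez identifier in RefSeq (GRCh38.p14; 45208 matched, 0 changed).

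The members and lists were chosen with earlier results of these data known. Differences are BATF3 siRNA minus control siRNA from limma 3.58.1 in R 4.3.3 (lmFit, eBayes, two-sided), fitted over all 49393 probe sets and, separately, over 18244 genes, each represented by its probe set of highest mean. P-values were Benjamini-Hochberg adjusted over each whole table and called under 0.05. Values for single probe sets come from the first fit, values for genes from the second. The fits were tested on simulated data. The labels do not say that replicates are separate cultures, and p-values cover only the variation among these 6 arrays, which may be technical; an exact permutation test of 3 against 3 cannot go below 0.1. The number of arrays limits precision (median SE 0.107).

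Named genes were the 9 members, the 3 of smallest p in each list, the 5 most like MYO10, and BATF3. ITGAX, CD68 and CCR7 come from the marker lists. A further list of actin regulators is not reported here. List members with no probe set of their own were not analysed here. Alternatives changed normalization, dim-probe filter, prior, array weights, blocks, test, threshold, choice of probe set, and left out each array.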

Additional observations from a re-analysis of the deposited data

How the results depend on the processing

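MYO10 stayed positive in all 18 alternatives at gene level, between 0.53 and 1.03, and was called in 5 of them. The threshold of 0.1 is the same fit and could not lose the call, and the most variable probe set gave the same MYO10 values. The highest difference, 1.03, came with array weights. These ran from 0.38 for control replicate 2 to 3.85 for control replicate 3, the lowest control for MYO10 on that probe set. The call was lost with quantile normalization (difference 0.92), median centring (0.93), cyclic loess (0.93), the background block (0.80), Welch's test (0.91), the mean of the probe sets (0.53) and on leaving out each array (0.83 to 0.96), so 0 member genes were called there in place of 1. Fewer arrays leave fewer degrees of freedom, and for the rest the cause was not tested. At probe set level 1 member was called in place of 0 with array weights, the trended robust prior, dim probe sets left out and an adjusted p under 0.1; leaving out arrays called 0. The 8 other genes were called in none of 143 fits, but small differences changed sign. Only BATF3 siRNA replicate 1 shares the controls' background, so the background block compares that 1 array with the controls. There FSCN1 was at 0.067, CDC42 at −0.0011, ENAH at 0.13, DIAPH1 at 0.15 and BAIAP2 at −0.084. Averaged probe sets gave ENAH 0.016, DIAPH3 0.0056, BAIAP2 −0.013, CYFIP1 −0.039 and RDX −0.0062. The most variable probe set gave DIAPH1 0.014, BAIAP2 −0.37, MYO3B 0.44, ITGB1 −0.22, ACTN1 −0.088, CYFIP1 −0.17 and RDX −0.22. Array weights gave DIAPH3 0.077 and BAIAP2 −0.039. Leaving out single arrays spanned −0.22 to 0.0045 for ENAH, −0.11 to 0.0013 for EVL, −0.18 to 0.026 for DIAPH1, −0.087 to 0.040 for DIAPH3 and −0.055 to 0.098 for BAIAP2. The 161 pathway genes measured gave 0 calls throughout. Among all genes 3 were called, against 0 to 25 in the alternatives, and among all probe sets 5, against 0 to 67. Both upper ends, 25 and 67, came with array weights. Same-numbered arrays deviated together with correlations of 0.029, 0.15 and −0.025, and 2 of 6 arrays correlated best with their own number, so the numbers are not taken to pair the arrays. With the replicate block MYO10 was at 0.91 and 0 member genes were called.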

Other observations

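Among the marker lists, ITGAX, the integrin chain of CD11c on dendritic and myeloid cells, read 7.96, 7.65 and 7.80 in the BATF3 siRNA arrays and 7.31, 7.02 and 7.50 in the control siRNA arrays. The groups did not overlap, and the difference of 0.53 did not pass (limma adjusted p = 0.448). ITGAX exceeded the highest background on 4 of 6 arrays. Other dendritic cell markers were at −0.12 (CD1C), −0.11 (XCR1), 0.02 (CLEC9A) and 0.19 (LAMP3), all under the highest background on every array. CD68, a lysosomal protein of macrophages, read 8.55, 8.72 and 8.43 after BATF3 siRNA and 7.92, 8.48 and 7.90 after control siRNA, where control replicate 2 reached into the other group (0.47; limma adjusted p = 0.593). CCR7, a chemokine receptor of migrating dendritic cells and lymphocytes, read 11.85, 11.62 and 11.71 after BATF3 siRNA and 11.87, 11.96 and 11.91 after control siRNA, a difference of −0.18 with the groups just apart (limma adjusted p = 0.763). The 3 genes were singled out after their values were seen, and none was called. Markers not singled out also differed by more than CCR7 did, among them CD163 at 0.43 and COL1A2 at −0.29.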
